A study of Mus musculus with 10 samples.

Results

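The genes described here are 10 members of the system that cuts and remodels the extracellular matrix: the inhibitor genes Timp1, Timp2 and Timp3 and the protease genes Mmp2, Mmp9, Mmp13, Mmp14, Adam12, Adam19 and Adamts1. They were chosen by name and are 10 of the 24454 genes in the deposited count table. Their mRNA was measured by RNA sequencing in NMuMG/E9, subclone 9 of a cell line from normal mouse mammary gland, so that every value comes from 1 subclone. Cells received siRNA at 20 nM, either siIrf1, which targets the mRNA of interferon regulatory factor 1, or the control siCtr, and all were collected on day 3 after transfection. In the TGFbeta groups recombinant human TGFbeta1 at 2 ng/ml was present for the last 2 d, and in the 0 d groups it was never added. The groups were siIrf1 with TGFbeta (3 libraries, replicates 1, 2 and 3), siCtr with TGFbeta (2 libraries, replicates 2 and 3), siIrf1 at 0 d (3 libraries, replicates 1, 2 and 3) and siCtr at 0 d (2 libraries, replicates 1 and 3). Values per library are given below in the order of these replicate numbers. Nothing in the labels says whether each library stands for its own culture, and the p-values therefore describe only how these libraries spread, which may be technical.

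Matrix metalloproteinases are zinc enzymes made as inactive precursors that are secreted or, in the case of Mmp14, held in the plasma membrane. TIMP proteins bind the active sites of most of these enzymes and block them. The pair is not only antagonistic, since TIMP2 bound to MMP14 at the cell surface also presents the precursor of MMP2 to another MMP14 molecule for activation. Adam proteases are anchored in the membrane, and several of them shed the outer parts of growth factors and receptors. Adamts proteases are secreted, and several of them cut proteoglycans. TGFbeta, the cytokine under which NMuMG cells lose their epithelial form (epithelial-mesenchymal transition), is known to act on several of these genes in epithelial cells.

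Library totals were 27547649 to 67301646 counts. Irf1, the target of the siRNA, averaged 41.2 ± 4.85 CPM (counts scaled to a common effective library size) in siIrf1 TGFbeta and 109 ± 3.57 CPM in siCtr TGFbeta, and 59.4 ± 4.17 CPM in siIrf1 0 d and 138 ± 13.4 CPM in siCtr 0 d (SD, n = 3, 2, 3 and 2). It fell by 1.40 on the log2 scale with TGFbeta and by 1.22 without it (edgeR quasi-likelihood test, Benjamini-Hochberg adjusted p = 3.48e-04 and 7.95e-04). Of 8 epithelial markers, mostly the keratins Krt8, Krt18 and Krt19, the summed level was 6947 to 14690 CPM per library, but Epcam and Cldn3 had at most 1 count in a group. Libraries also differed in how far genes of low GC content stood above genes of high GC content. This GC index (the 20% of genes lowest in GC content minus the 20% highest, log2) averaged 0.46 in siIrf1 TGFbeta and -0.32 in siCtr TGFbeta, and 0.54 in siIrf1 0 d and -1.13 in siCtr 0 d. The group means thus moved with the siRNA and, in siCtr cells, also with TGFbeta. Standing apart were replicate 2 of siIrf1 TGFbeta, with an index of -0.38 against 0.80 and 0.95 in the other 2 libraries of that group, and replicate 1 of siCtr 0 d, with -1.61. Where leaving out either library, or both, changed a call of the 10 genes, the value without it is given beside the result.

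The promoter sequences of 3 genes whose mRNA rose with TGFbeta with either siRNA, and of Mmp13, the collagenase gene that is a textbook target of the AP-1 factor, are shown first. They are the 250 bases before the annotated start, 5′ to 3′ on the gene's strand, from RefSeq (GRCm38.p6), a table that held 7 of the 10 genes. Those printed are Timp1 (chrX:20869916-20870165, plus strand), Timp3 (chr10:86300162-86300411, plus strand), Mmp14 (chr14:54431348-54431597, plus strand) and Mmp13 (chr9:7272264-7272513, plus strand). Capitals mark matches, on either strand, to any of 5 motifs: the AP-1 site TGANTCA, the core of the interferon-stimulated response element (GAAA repeated after 2 bases of any kind), the Smad palindrome GTCTAGAC, the Smad box CAGAC and the GC box GGGCGG.
Timp1: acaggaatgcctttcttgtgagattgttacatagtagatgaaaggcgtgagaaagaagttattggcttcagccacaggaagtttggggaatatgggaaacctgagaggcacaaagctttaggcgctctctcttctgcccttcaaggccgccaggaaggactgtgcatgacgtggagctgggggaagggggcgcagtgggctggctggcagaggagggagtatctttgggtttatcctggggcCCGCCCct
Timp3: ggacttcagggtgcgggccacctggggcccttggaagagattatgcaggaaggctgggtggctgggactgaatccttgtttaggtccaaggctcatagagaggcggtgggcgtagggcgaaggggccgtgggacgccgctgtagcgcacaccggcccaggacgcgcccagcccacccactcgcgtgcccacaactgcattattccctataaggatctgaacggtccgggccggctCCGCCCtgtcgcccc
Mmp14: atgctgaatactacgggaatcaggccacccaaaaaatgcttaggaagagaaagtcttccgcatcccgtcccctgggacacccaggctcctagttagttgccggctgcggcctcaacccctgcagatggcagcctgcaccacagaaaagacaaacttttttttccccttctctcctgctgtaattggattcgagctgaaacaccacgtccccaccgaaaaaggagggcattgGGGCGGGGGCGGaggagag
Mmp13: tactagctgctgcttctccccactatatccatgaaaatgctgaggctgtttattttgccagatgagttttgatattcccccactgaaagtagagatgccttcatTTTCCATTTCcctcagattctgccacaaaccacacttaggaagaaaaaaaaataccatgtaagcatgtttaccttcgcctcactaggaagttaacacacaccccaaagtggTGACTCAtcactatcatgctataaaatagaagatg
Every capital in the first 3 sequences belongs to a GC box, which lay 8 to 3 bases before the start in Timp1, 15 to 10 in Timp3, and 19 to 14 and 13 to 8 in Mmp14. GC boxes were also present in the windows of Timp2 and Adamts1, and 32.7% of the 32851 mouse promoters in the table held one. The Mmp13 window had an AP-1 match 35 to 29 bases before the start and an interferon-response core, on the opposite strand, 146 to 137 bases before it. These 2 motifs were found in 6.75% and 2.98% of all promoters. Neither Smad motif matched in the 4 sequences, against 0.167% of all promoters with the palindrome and 42.2% with the CAGAC box. Such matches describe letters and do not show binding.

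Per kilobase of transcript, 3 of the 10 mRNAs made up nearly all of the signal. Levels in RPKM (CPM divided by the gene's length in kilobases) followed the order Timp2, Mmp14, Timp1 in every group. Timp2 averaged 194 RPKM in siIrf1 TGFbeta, 295 in siCtr TGFbeta, 141 in siIrf1 0 d and 233 in siCtr 0 d. Mmp14 averaged 94.9, 153, 34.1 and 33.7 RPKM in the same groups, and Timp1 44.1, 98.1, 22.6 and 32.3 RPKM. Neighbours in this order did not overlap between libraries, except Mmp14 and Timp1 in siCtr 0 d. The other genes lay below 2 RPKM in every library. Mmp9 took the fourth place in siCtr TGFbeta, at 1.44 RPKM, followed by Timp3 at 0.978 and Adamts1 at 0.966, whose libraries overlapped. In the other 3 groups Adamts1 and Mmp13 held the fourth and the fifth places, with overlapping libraries, at 0.575 to 1.29 RPKM.

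**Figure D1:**
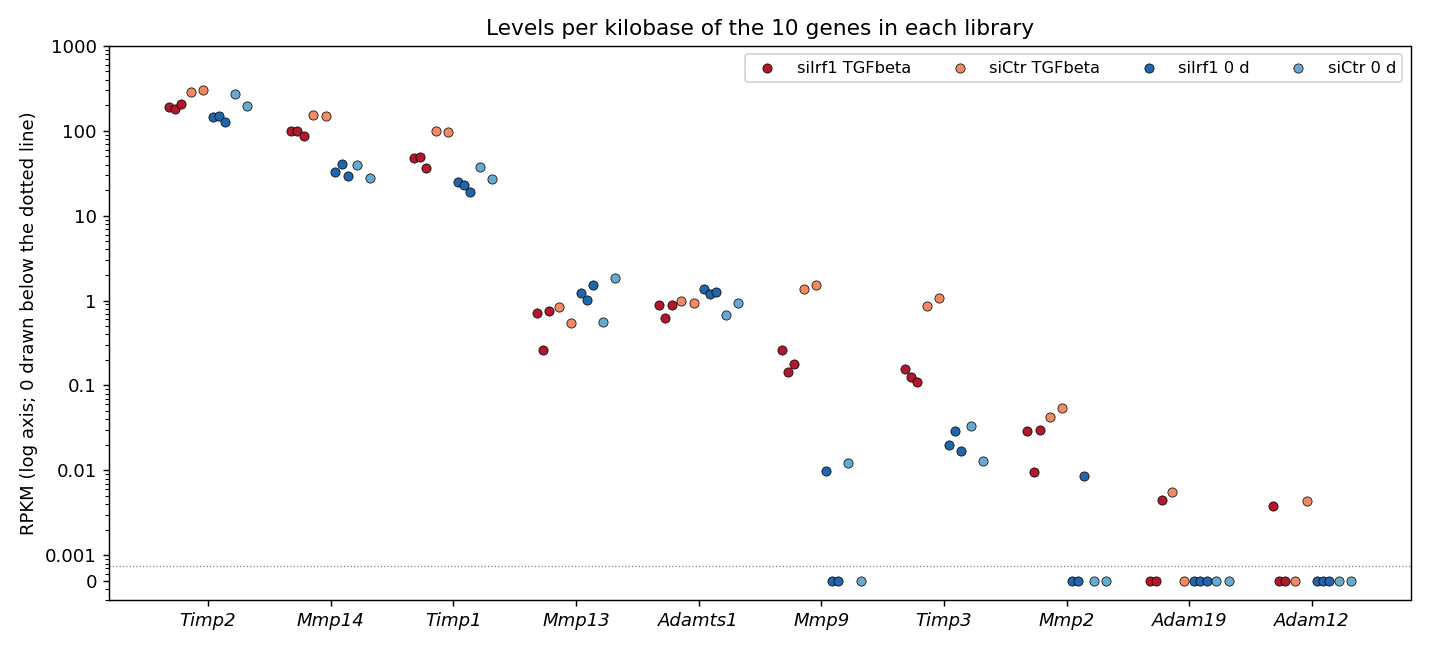
Levels of the 10 genes in each library, in RPKM on a log axis, with a point per library coloured by group and libraries at 0 drawn below the dotted line. Timp2, Mmp14 and Timp1 stand well above the rest in all 10 libraries, and Mmp9 and Timp3 reach about 1 RPKM only in siCtr TGFbeta (means 1.44 and 0.978).

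Mmp2, Adam12 and Adam19 did not pass the filter on low counts and were not tested in the fit reported here. Adam12, a membrane protease found in mesenchymal cells, had 1 count in siIrf1 TGFbeta, 1 in siCtr TGFbeta and none at 0 d. Adam19, a related membrane protease, had 1 count in siIrf1 TGFbeta, 2 in siCtr TGFbeta and none at 0 d. A floor of 3 counts over a group lies at 0.0220, 0.0358, 0.0263 and 0.0513 CPM in siIrf1 TGFbeta, siCtr TGFbeta, siIrf1 0 d and siCtr 0 d, so both mRNAs were at or below what this depth can show. The other 7 genes passed the filter on low counts, Timp3 and Mmp9 through their TGFbeta libraries, so that a change with TGFbeta was a condition of their being tested.

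Among the inhibitors, TGFbeta raised Timp1 and Timp3 with either siRNA, while the test was not passed for Timp2. Timp1 (chromosome X, 20870166 to 20874737), a secreted inhibitor of most matrix metalloproteinases, had 42.3, 43.5 and 32.1 CPM in siIrf1 TGFbeta and 88.9 and 85.8 CPM in siCtr TGFbeta. At 0 d it had 22.4, 20.7 and 17.2 CPM in siIrf1 and 33.6 and 23.9 CPM in siCtr cells. All TGFbeta libraries were above the 0 d libraries of the same siRNA, and the siCtr TGFbeta libraries were highest. The log2 fold change with TGFbeta was 0.97 ± 0.19 in siIrf1 cells (SE, edgeR quasi-likelihood test, adjusted p = 0.00440) and 1.60 ± 0.24 in siCtr cells (adjusted p = 5.67e-04). Timp1 lies within Syn1, a gene on the opposite strand, but the pair share no exon base.

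Timp3 (chromosome 10, 86300412 to 86349505), the inhibitor that stays bound to the matrix and also blocks Adam proteases, had 0.738, 0.593 and 0.512 CPM in siIrf1 TGFbeta and 4.09 and 5.06 CPM in siCtr TGFbeta. At 0 d it had 0.0942, 0.136 and 0.0791 CPM in siIrf1 and 0.157 and 0.0606 CPM in siCtr cells. These values rest on 25, 41 and 17 counts, 220 and 152 counts, 3, 6 and 3 counts, and 4 and 2 counts in the 4 groups. The mRNA was near the limit of detection without TGFbeta and separated all TGFbeta libraries from all 0 d libraries. It rose with TGFbeta by 2.51 ± 0.37 on the log2 scale in siIrf1 cells (SE, edgeR adjusted p = 8.09e-04) and by 5.42 ± 0.44 in siCtr cells (edgeR adjusted p = 1.31e-05). The siCtr value was 6.21 without replicate 1 of siCtr 0 d. Timp3 shares 1733 exon bases with Syn3, a neuronal gene on the opposite strand, and whether reads were counted by strand is not given in the sources used here. Syn3 averaged 4.86 ± 1.87 CPM in siIrf1 TGFbeta, 3.07 ± 0.282 in siCtr TGFbeta, 5.33 ± 0.863 in siIrf1 0 d and 5.89 ± 2.17 in siCtr 0 d (SD). The part of shared reads in the values of either gene was not tested.

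Timp2 (chromosome 11, 118301061 to 118355411), the partner of Mmp14 in the activation of Mmp2, had 693, 661 and 758 CPM in siIrf1 TGFbeta and 1043 and 1094 CPM in siCtr TGFbeta. At 0 d it had 533, 542 and 459 CPM in siIrf1 and 981 and 704 CPM in siCtr cells. The TGFbeta libraries were above the 0 d libraries within each siRNA, by much less than for Timp1 and Timp3. The log2 fold change with TGFbeta was 0.46 ± 0.15 in siIrf1 cells (SE, edgeR adjusted p = 0.0517) and 0.34 ± 0.18 in siCtr cells (edgeR adjusted p = 0.172). Both missed the threshold of 0.05. The siIrf1 value passed it under 8 of 19 alternatives (adjusted p 0.0126 to 0.196 over all 19), among them the fits without replicate 2 of siIrf1 TGFbeta (0.51, edgeR adjusted p = 0.0486), without replicate 1 of siCtr 0 d (0.46, edgeR adjusted p = 0.0275) and without both (0.49, edgeR adjusted p = 0.0129). The siCtr value passed under 2 of 19 (adjusted p 0.0184 to 0.364 over all 19). It was 0.64 without replicate 1 of siCtr 0 d, the library with 981 CPM (edgeR adjusted p = 0.0451), and 0.64 without both libraries that stood apart (edgeR adjusted p = 0.0184).

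Among the proteases, TGFbeta raised Mmp14 and Mmp9 with either siRNA. Mmp14 (chromosome 14, 54431598 to 54442456), the membrane-bound collagenase, had 259, 256 and 224 CPM in siIrf1 TGFbeta and 403 and 390 CPM in siCtr TGFbeta. At 0 d it had 84.7, 104 and 76.8 CPM in siIrf1 and 102 and 73.2 CPM in siCtr cells. The siRNA groups overlapped at 0 d and were apart with TGFbeta, and every TGFbeta library was above every 0 d library. Its log2 fold change with TGFbeta was 1.48 ± 0.17 in siIrf1 cells (SE, edgeR adjusted p = 1.39e-04) and 2.18 ± 0.21 in siCtr cells (edgeR adjusted p = 3.60e-05).

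Mmp9 (chromosome 2, 164940326 to 164955850), the gelatinase that cuts denatured collagen and basement membrane collagen, was all but absent without TGFbeta. It had 28, 32 and 19 counts in siIrf1 TGFbeta and 234 and 144 counts in siCtr TGFbeta, against 1, 0 and 0 counts in siIrf1 0 d and 1 and 0 counts in siCtr 0 d. In CPM the TGFbeta libraries held 0.827, 0.463 and 0.572 with siIrf1 and 4.35 and 4.80 with siCtr. The ratio of TGFbeta to 0 d levels was 66.1 in siIrf1 cells (95% counting interval 11.5 to 2642) and 264 in siCtr cells (95% counting interval 47.1 to 10450), each resting on the 1 count of its 0 d group. Both rises passed the test (edgeR adjusted p = 2.80e-04 and 2.67e-05). The size of the rise is known only within those intervals, which cover counting error alone.

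Mmp2 (chromosome 8, 92827290 to 92853421), the other gelatinase, stayed at the edge of detection, with 3, 2 and 3 counts in siIrf1 TGFbeta and 7 and 5 counts in siCtr TGFbeta. At 0 d it had 0, 0 and 1 count in siIrf1 and 0 and 0 counts in siCtr cells. The ratio of TGFbeta to 0 d levels was 6.69 in siIrf1 cells (95% counting interval 0.897 to 297). In siCtr cells its level with TGFbeta was 2.79-fold the floor of 3 counts over siCtr 0 d. That value takes the 12 counts with TGFbeta as exact and is no 95% limit. The gene whose product Mmp14 and Timp2 activate was at 0.0488 RPKM in siCtr TGFbeta, where Mmp14 was at 153 and Timp2 at 295 RPKM. Fitted without the filter, Mmp2 was called up with TGFbeta in siCtr cells (edgeR adjusted p = 0.0387) and not in siIrf1 cells (edgeR adjusted p = 0.249), on 12 and 8 counts with TGFbeta.

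**Figure D2:**
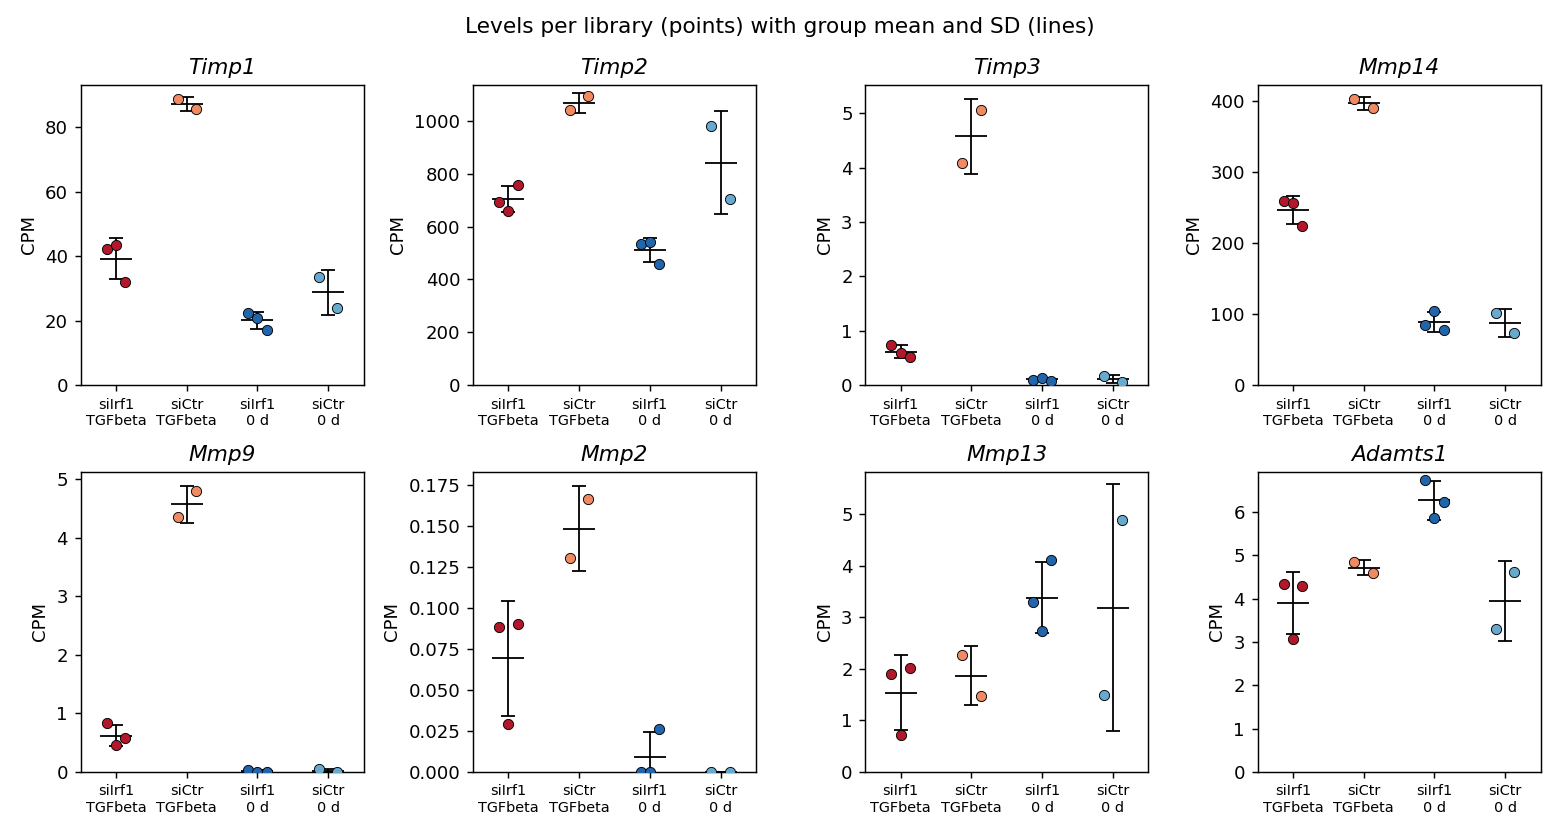
CPM per library (points) of 8 of the genes, with the group mean and SD as lines, for siIrf1 TGFbeta, siCtr TGFbeta, siIrf1 0 d and siCtr 0 d from left to right. Timp1, Timp3, Mmp14 and Mmp9 are highest in siCtr TGFbeta and lower in siIrf1 TGFbeta, while Mmp13 and Adamts1 show no such order.

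TGFbeta gave no upward call for Mmp13 or Adamts1. Mmp13 (chromosome 9, 7272514 to 7283333), an interstitial collagenase, had 1.89, 0.708 and 2.02 CPM in siIrf1 TGFbeta and 2.27 and 1.47 CPM in siCtr TGFbeta, against 3.30, 2.74 and 4.12 CPM in siIrf1 0 d and 1.49 and 4.88 CPM in siCtr 0 d. The siIrf1 libraries did not overlap between TGFbeta and 0 d, and the siCtr libraries did. The log2 fold changes with TGFbeta, -1.17 ± 0.48 in siIrf1 cells (SE, edgeR adjusted p = 0.126) and -0.77 ± 0.59 in siCtr cells (edgeR adjusted p = 0.338), missed the threshold. With trends in GC content and length removed they were -1.14 (edgeR adjusted p = 0.0167) and -1.10 (edgeR adjusted p = 0.0372), but with the replicate number as a block as well only the siIrf1 value passed (-1.15, edgeR adjusted p = 0.0295). The siIrf1 value also passed without replicate 1 of siCtr 0 d (-1.18, edgeR adjusted p = 0.0460) and without both libraries that stood apart (-0.81, edgeR adjusted p = 0.0422). The siCtr value was -1.32 without both (edgeR adjusted p = 0.0139), and 0.46 without replicate 3 of siCtr 0 d, the library with 4.88 CPM (edgeR adjusted p = 0.584).

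Adamts1 (chromosome 16, 85793827 to 85803113), a secreted protease that cuts the proteoglycans aggrecan and versican, had 4.34, 3.08 and 4.30 CPM in siIrf1 TGFbeta and 4.84 and 4.60 CPM in siCtr TGFbeta. At 0 d it had 6.75, 5.86 and 6.23 CPM in siIrf1 and 3.30 and 4.61 CPM in siCtr cells. The siIrf1 0 d libraries were above all others, and the siCtr groups overlapped. It fell with TGFbeta in siIrf1 cells, by 0.69 ± 0.21 on the log2 scale (SE, edgeR adjusted p = 0.0425), a call that was lost under 12 of 19 alternatives (adjusted p 0.00533 to 0.144 over all 19), the fit without replicate 2 of siIrf1 TGFbeta among them (-0.54, edgeR adjusted p = 0.0884). In siCtr cells its log2 fold change with TGFbeta was 0.25 ± 0.26 (SE, edgeR adjusted p = 0.483).

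In counts, TGFbeta changed 5 of the 7 tested genes in siIrf1 cells, 4 upward and 1 downward, where 21.3% of all 13135 tested genes were called, 11.6% upward and 9.71% downward. In siCtr cells it changed 4, all upward, where 32.5% of tested genes were called, 16.1% upward. The median log2 fold change with TGFbeta of the 7 genes was 0.97 in siIrf1 and 1.60 in siCtr cells, and of all tested genes 0.02 and 0.02. Libraries with TGFbeta lay wholly above those without for 5 of the 7 genes with either siRNA, which was so for 17.4% of tested genes in siIrf1 and 36.5% in siCtr cells. These counts and medians are no support, since Timp3 and Mmp9 were tested only because of their TGFbeta libraries. The members were also chosen with earlier results of these data known. Fibroblast and pericyte markers moved with TGFbeta too. The summed level of 7 of them was 27.1 to 31.4 CPM in siIrf1 TGFbeta and 34.4 to 38.9 in siCtr TGFbeta, against 0.837 to 0.976 in siIrf1 0 d and 0.424 to 0.589 in siCtr 0 d. With TGFbeta this was mostly Col1a1 and Pdgfrb, while Dcn was the highest in siIrf1 0 d (0.458 CPM) and Col1a1 in siCtr 0 d (0.378 CPM), and Col1a2 and Lum were at 0 in every library. The 5 endothelial markers, mostly Cdh5 with TGFbeta and Vwf without it, summed to 1.78 to 2.17 CPM, 6.00 to 6.64, 0.498 to 0.534 and 0.606 to 0.628 CPM in the same groups. Leukocyte markers, mostly Cd14 and Csf1r with Adgre1 at 0, summed to 72.4 to 85.8, 78.7 to 89.7, 65.2 to 68.0 and 94.9 to 99.6 CPM, and myoepithelial markers to 13 to 24.1, 11.1 to 13.7, 11.8 to 16.8 and 13.9 to 16.5 CPM. The part of these markers in the changes of the 10 genes was not tested, and in bulk RNA more expressing cells cannot be told apart from more mRNA per cell.

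With TGFbeta present, siIrf1 cells had less mRNA of all 3 inhibitors and of both induced proteases than siCtr cells. Timp3 and Mmp9 differed most, by -2.89 ± 0.29 (SE, edgeR adjusted p = 2.26e-04) and -2.90 ± 0.37 on the log2 scale (SE, edgeR adjusted p = 7.97e-04). By counts, the siIrf1 level was 0.137 of the siCtr level for Timp3 (95% counting interval 0.107 to 0.174) and 0.128 for Mmp9 (0.0995 to 0.164). Timp1 differed by -1.15 ± 0.21 (SE, edgeR adjusted p = 0.00465). The calls of these 3 genes held under all alternatives in which they were tested, with log2 values of -3.10 to -2.78 for Timp3, -3.21 to -2.70 for Mmp9 and -1.31 to -1.03 for Timp1, the removal of the GC and length trend included.

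Mmp14 and Timp2, the abundant pair, differed less. Mmp14 fell by 0.69 ± 0.18 on the log2 scale with siIrf1 under TGFbeta (SE, edgeR adjusted p = 0.0263), and Timp2 by 0.60 ± 0.16 (SE, edgeR adjusted p = 0.0300). Their siIrf1 TGFbeta libraries, at 224 to 259 CPM for Mmp14 and 661 to 758 CPM for Timp2, lay below all siCtr TGFbeta libraries. The Mmp14 call was lost without replicate 1 (-0.72, edgeR adjusted p = 0.0633) or 3 (-0.62, 0.0657) of siIrf1 TGFbeta and without replicate 2 (-0.72, 0.107) or 3 (-0.75, 0.0900) of siCtr TGFbeta. The Timp2 call was lost with the GC and length trend removed (-0.43, edgeR adjusted p = 0.0545). It was also lost without replicate 1 (-0.59) or 2 (-0.56) of siIrf1 TGFbeta, without replicate 2 (-0.69) or 3 (-0.61) of siCtr TGFbeta and without replicate 1 of siIrf1 0 d (-0.60). Mmp13 and Adamts1 did not pass the test, with log2 differences of -0.33 ± 0.54 and -0.28 ± 0.24 (SE, edgeR adjusted p = 0.737 and 0.482). In all 5 of the 7 tested genes were called, each downward, against 18% of all tested genes, 8.28% downward. The siIrf1 libraries lay wholly below the siCtr libraries for 6 of the 7, against 22.9% of tested genes. Neither count is support, since Timp3 and Mmp9 were tested only because of their TGFbeta libraries, which were highest with siCtr. The members were also chosen with earlier results of these data known.

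**Figure D3:**
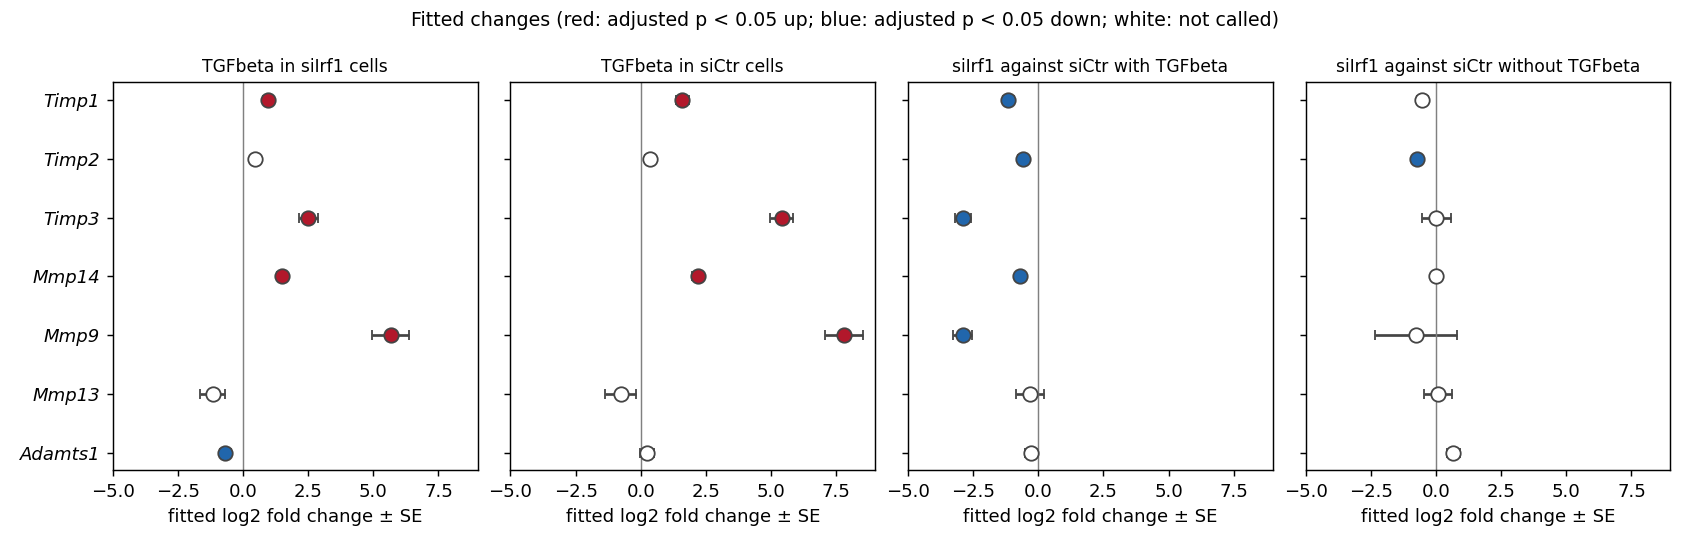
Fitted log2 fold changes ± SE of the 7 tested genes in the 4 pairwise comparisons, red or blue where the edgeR adjusted p was under 0.05 and white where it was not. The 5 genes that were lower with siIrf1 under TGFbeta include the 4 that TGFbeta raised, and without TGFbeta only Timp2 is called (log2 fold change -0.72).

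Without TGFbeta, Timp2 was the 1 gene of the 7 that passed the test between the siRNAs. Timp2 differed between siIrf1 and siCtr cells by -0.72 ± 0.16 on the log2 scale (SE, edgeR adjusted p = 0.00991). This call was lost with the GC and length trend removed (-0.38, edgeR adjusted p = 0.0740), and without replicate 1 of siCtr 0 d, the library with 981 CPM (-0.47, edgeR adjusted p = 0.116) or without both libraries that stood apart (-0.47, edgeR adjusted p = 0.0507). Timp1 differed by -0.52 ± 0.21 (SE, edgeR adjusted p = 0.0841) and Adamts1 by 0.66 ± 0.24 (SE, edgeR adjusted p = 0.0603). With the replicate number as a block these 2 passed, at -0.53 (edgeR adjusted p = 0.0295) and 0.73 (edgeR adjusted p = 0.0462). For Timp1 this was 1 of 19 alternatives, which spanned -0.68 to -0.11 (adjusted p 0.0295 to 0.531), and it did not pass with trend removal and block together. Adamts1 passed under 6 of 19 (0.43 to 1.00, adjusted p 0.0205 to 0.369), the fit without replicate 2 of siIrf1 TGFbeta among them (0.66, edgeR adjusted p = 0.0329). Mmp14, Timp3 and Mmp13 had log2 differences of 0.02 ± 0.18, 0.01 ± 0.56 and 0.07 ± 0.53 (SE, edgeR adjusted p = 0.945, 0.990 and 0.928), and Mmp9 had 1 count in each group. Mmp14 was higher in siIrf1 cells once the GC and length trend was removed (0.44, edgeR adjusted p = 0.0271). Of the 7 genes, 1 was called, downward, where 31.8% of all tested genes were called, 15.5% downward. Besides the GC index, some markers of other cell types moved with the siRNA. Dcn, a fibroblast marker, had 87 counts in siIrf1 TGFbeta and 0 in siCtr TGFbeta, and 52 in siIrf1 0 d and 0 in siCtr 0 d. Under TGFbeta the other tested fibroblast and pericyte markers did not follow it. Their log2 differences there were -0.69 (Pdgfra), -0.30 (Pdgfrb) and -0.40 (Col1a1), none of them called. Without TGFbeta Pdgfrb was higher in all siIrf1 libraries (3.59 ± 1.36, SE, edgeR adjusted p = 0.141), while Pdgfra had 0.24 and Col1a1 -0.49. None of these was called either. With TGFbeta the leukocyte marker Cd68 (-1.48) and the endothelial markers Cdh5 (-1.73) and Vwf (-1.28) were lower with siIrf1, and the myoepithelial keratins Krt5 (1.501) and Krt14 (1.46) were higher, as log2 differences. Uncalled leukocyte markers went both ways, with Ptprc (2.26), Lyz2 (2.84) and Csf1r (0.50) higher and Cd14 (-0.52) lower. The myoepithelial genes Acta2 (0.42) and Myh11 (-0.39) were not called either. Without TGFbeta the leukocyte marker Ptprc was higher (91 counts in siIrf1 0 d, 2 in siCtr 0 d) and Cd14 lower (-1.40). The leukocyte markers Cd68 (-0.51), Lyz2 (-0.54) and Csf1r (0.43) were not called there. The part of these markers in the differences was not tested.

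Whether TGFbeta acted differently under the 2 siRNAs was tested as an interaction, which 4.12% of all tested genes passed, 1.32% downward. Timp3 passed, as the only one of the 7: its rise was smaller in siIrf1 than in siCtr cells, with an interaction of -2.90 ± 0.65 on the log2 scale (SE, edgeR adjusted p = 0.0355). The 12 counts of siIrf1 0 d and the 6 counts of siCtr 0 d limit its precision. The call was lost under 11 of 17 alternatives, the replicate block (-3.11, edgeR adjusted p = 0.0505) and the fit without replicate 2 of siIrf1 TGFbeta (-2.88, edgeR adjusted p = 0.0560) among them, while the value stayed between -3.69 and -2.44. Mmp9, with 1 count in each 0 d group, had an interaction of -2.14 ± 2.25 (SE, edgeR adjusted p = 0.648). Mmp14 and Timp1 had interactions of -0.70 ± 0.26 and -0.64 ± 0.30 (SE, edgeR adjusted p = 0.184 and 0.297). These passed with the GC and length trend removed, at -0.97 (edgeR adjusted p = 0.00995) for Mmp14 and -0.92 (edgeR adjusted p = 0.0203) for Timp1, and Mmp14 also without both libraries that stood apart (-1.05, edgeR adjusted p = 0.0438). Timp2 had 0.12 ± 0.24, Mmp13 -0.40 ± 0.76 and Adamts1 -0.94 ± 0.34 (SE, edgeR adjusted p = 0.818, 0.810 and 0.170).

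Set against each other per kilobase, the inhibitors and the metalloproteinases moved by different amounts. Timp1, Timp2 and Timp3 together had 239, 231 and 245 RPKM in siIrf1 TGFbeta and 389 and 399 RPKM in siCtr TGFbeta, against 172, 173 and 146 RPKM in siIrf1 0 d and 309 and 221 RPKM in siCtr 0 d. Mmp2, Mmp9, Mmp13 and Mmp14 together had 101, 99.0 and 87.4 RPKM in siIrf1 TGFbeta and 157 and 152 RPKM in siCtr TGFbeta, against 33.8, 41.2 and 31.1 RPKM in siIrf1 0 d and 39.7 and 30.0 RPKM in siCtr 0 d. Mmp14 alone made up 93.9 to 99.6% of the metalloproteinase sum in every library. Timp2 made up 74.1 to 87.9% of the inhibitor sum.

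The ratio of Timp2 to Mmp14 was lower with TGFbeta. It was 1.92, 1.85 and 2.42 in siIrf1 TGFbeta and 1.86 and 2.01 in siCtr TGFbeta, against 4.52, 3.73 and 4.28 in siIrf1 0 d and 6.92 and 6.90 in siCtr 0 d. The siRNA groups overlapped with TGFbeta and were apart without it, where the siIrf1 libraries had the lower ratios. The ratio is given as a description with no test. As mRNA levels these ratios do not measure the proteins.

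**Figure D4:**
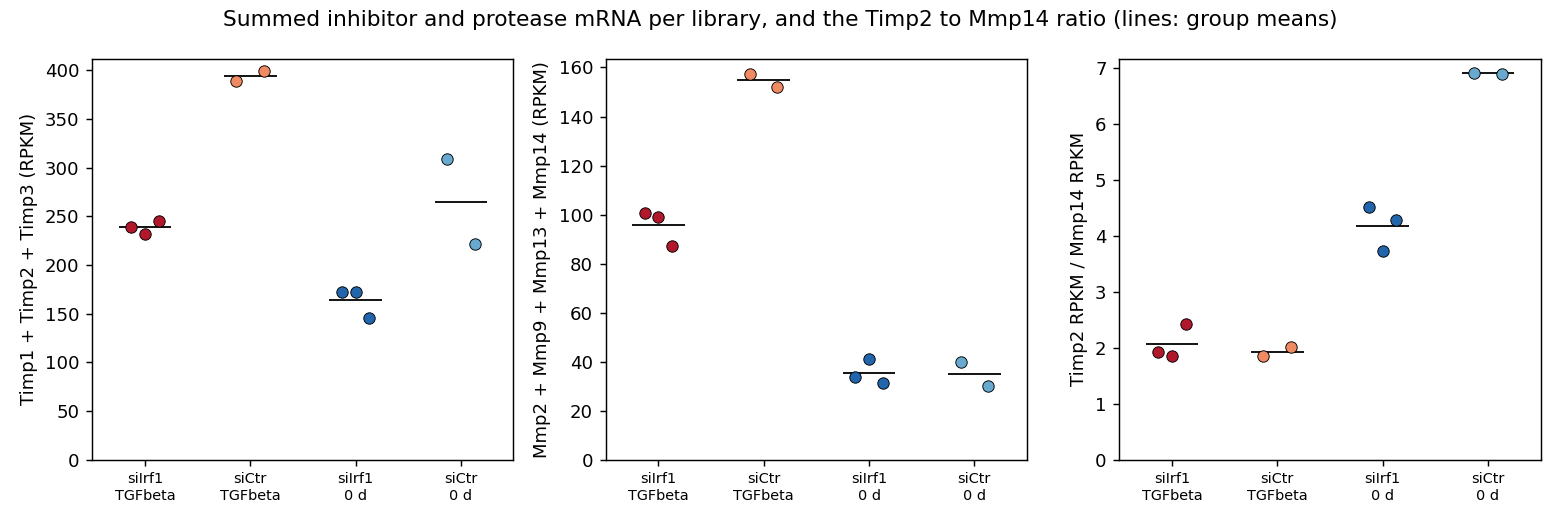
Summed RPKM of the 3 Timp genes (left), summed RPKM of Mmp2, Mmp9, Mmp13 and Mmp14 (middle) and the ratio of Timp2 to Mmp14 RPKM (right), with a point per library and a line at the group mean. The ratio is 1.85 to 2.42 with TGFbeta and 3.73 to 6.92 without.

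The wider protease system held 82 other genes in 6 lists, of which 37 were tested, and 16 of the other 45 had no count in any library. With TGFbeta, 18 rose and 3 fell in siIrf1 cells and 17 rose and 4 fell in siCtr cells, 56.8% called with each siRNA, against 21.3% and 32.5% of all tested genes. Of these, 16 rose with both siRNAs. The share is no support, since 6 of the 37 (Mmp3, Mmp10, Mmp23, Adamts7, Adamts16 and St14) would not have passed the filter on their 0 d libraries alone, and 5 of the 6 were called up with each siRNA. The lists were chosen with earlier results of these data known. Among 8 other tested matrix metalloproteinases, 5 rose with TGFbeta in siIrf1 cells and 4 in siCtr cells (median log2 fold change 1.70 and 1.02). Mmp10, the stromelysin that can activate other metalloproteinase precursors, reached 2.56 ± 0.835 CPM in siIrf1 TGFbeta and 17.3 ± 2.79 in siCtr TGFbeta, against 0.155 ± 0.0569 in siIrf1 0 d and 0.159 ± 0.0531 in siCtr 0 d (SD). Mmp24, a membrane-type metalloproteinase, rose by 2.50 in siIrf1 and 2.94 in siCtr cells on the log2 scale.

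Mmp28, the metalloproteinase epilysin of epithelia, rose with TGFbeta in siIrf1 cells, by 2.67 ± 0.23 on the log2 scale (SE, edgeR adjusted p = 2.29e-05). It had 4.00 ± 0.355 CPM in siIrf1 TGFbeta and 3.27 ± 0.666 in siCtr TGFbeta, against 0.628 ± 0.0847 in siIrf1 0 d and 3.30 ± 0.00409 in siCtr 0 d (SD). The low group was siIrf1 0 d, and the libraries of the other 3 groups lay between 2.80 and 4.35 CPM. Mmp19, a metalloproteinase that cuts basement membrane proteins, was lower with siIrf1 than with siCtr, with log2 differences of -2.49 ± 0.23 with TGFbeta and -2.37 ± 0.23 without it (SE, edgeR adjusted p = 1.54e-04 and 3.01e-04).

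Of 5 other tested Adam genes, Adam8 alone was called up with TGFbeta, by 2.51 ± 0.16 in siIrf1 and 2.48 ± 0.20 in siCtr cells on the log2 scale (SE, edgeR adjusted p = 4.86e-06 and 1.15e-05). A missed threshold does not show that the others were unchanged. Adam8, a sheddase also found in leukocytes, had 50.7 ± 5.00 CPM in siIrf1 TGFbeta and 263 ± 17.4 in siCtr TGFbeta, against 8.89 ± 1.10 in siIrf1 0 d and 46.9 ± 6.97 in siCtr 0 d (SD). It was lower with siIrf1 than with siCtr (log2 difference -2.37 with and -2.40 without TGFbeta), and its interaction was 0.03 ± 0.24 (SE, edgeR adjusted p = 0.964). Adam15, another membrane-bound Adam protease, was lower with siIrf1 in both conditions (-1.12 with and -0.79 without TGFbeta). Of 5 other tested Adamts genes, 4 rose with TGFbeta with either siRNA, where 11.6% of all tested genes rose in siIrf1 and 16.1% in siCtr cells. The count is no support, since Adamts7 and Adamts16, both called up, would not have passed the filter on their 0 d libraries alone. Also among the 4 was the aggrecan-cutting Adamts4. It had 8.72 ± 1.16 CPM in siIrf1 TGFbeta and 24.0 ± 0.599 in siCtr TGFbeta, against 1.37 ± 0.207 in siIrf1 0 d and 1.03 ± 0.176 in siCtr 0 d (SD). Adamts6 rose by 4.40 in siIrf1 and 5.89 in siCtr cells on the log2 scale. Adamts16 rose as well, to 313 counts in siIrf1 TGFbeta and 455 in siCtr TGFbeta, against 7 in siIrf1 0 d and 1 in siCtr 0 d.

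In the plasminogen activator system, 4 genes were tested here. Plat, the tissue plasminogen activator, fell with TGFbeta in siIrf1 cells (log2 fold change -0.68) and was lower with siIrf1 than with siCtr under TGFbeta (-0.78). Plaur, the receptor that holds urokinase at the cell surface, was also lower with siIrf1 than with siCtr under TGFbeta. It had 139 ± 39.2 CPM in siIrf1 TGFbeta and 271 ± 26.03 in siCtr TGFbeta (SD), a log2 difference of -0.97 ± 0.22 (SE, edgeR adjusted p = 0.0132). Of the 3 tested inhibitors and cofactors of other kinds, Thbs1, the matrix protein thrombospondin 1, rose by 1.92 in siIrf1 and 3.34 in siCtr cells on the log2 scale. Lcn2, a secreted lipocalin, had log2 fold changes of -1.48 in siIrf1 and -3.49 in siCtr cells.

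Among 12 tested astacins, convertases and pericellular serine proteases with their regulators, 6 rose with TGFbeta with both siRNAs, 1 more in siIrf1 cells and another 1 in siCtr cells, while 1 fell in siIrf1 and 3 fell in siCtr cells. Of all tested genes 11.6% rose in siIrf1 and 16.1% in siCtr cells. These counts are no support, since St14, called up with both siRNAs, would not have passed the filter on its 0 d libraries alone. Bmp1, the procollagen C-proteinase, had 254 ± 29.9 CPM in siIrf1 TGFbeta and 553 ± 5.17 in siCtr TGFbeta, against 36.5 ± 4.25 in siIrf1 0 d and 58.4 ± 3.59 in siCtr 0 d (SD). Pcolce2, an enhancer of procollagen processing, had 2.84 ± 0.212 CPM in siIrf1 TGFbeta and 27.7 ± 3.46 in siCtr TGFbeta, against 0.519 ± 0.0619 in siIrf1 0 d and 1.11 ± 0.372 in siCtr 0 d (SD). Mep1a, the astacin meprin alpha of epithelia, ran the other way. It had 55.7 ± 2.67 CPM in siIrf1 TGFbeta and 3.57 ± 0.280 in siCtr TGFbeta, against 60.0 ± 1.62 in siIrf1 0 d and 60.9 ± 7.41 in siCtr 0 d (SD). Its log2 fold change with TGFbeta was -0.11 ± 0.13 in siIrf1 cells (SE, edgeR adjusted p = 0.651), and it fell by 4.10 ± 0.19 in siCtr cells (SE, edgeR adjusted p = 2.20e-06).

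Over the 37 genes, siIrf1 against siCtr gave 13 lower and 4 higher with TGFbeta (45.9% called, median log2 difference -0.34) and 11 lower without it (29.7% called, median -0.16). Of all tested genes 18% were called with TGFbeta and 31.8% without it, so that the share without TGFbeta was no higher than among all genes. The share with TGFbeta is no support, since Mmp3 and Mmp10, both called lower, passed the filter only through their TGFbeta libraries. The lists were also chosen with earlier results of these data known. The median over all tested genes was 0.05 with TGFbeta and -0.03 without. The TGFbeta responses of the 7 genes and of the wider system are set side by side in the plot of both siRNAs.

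**Figure D5:**
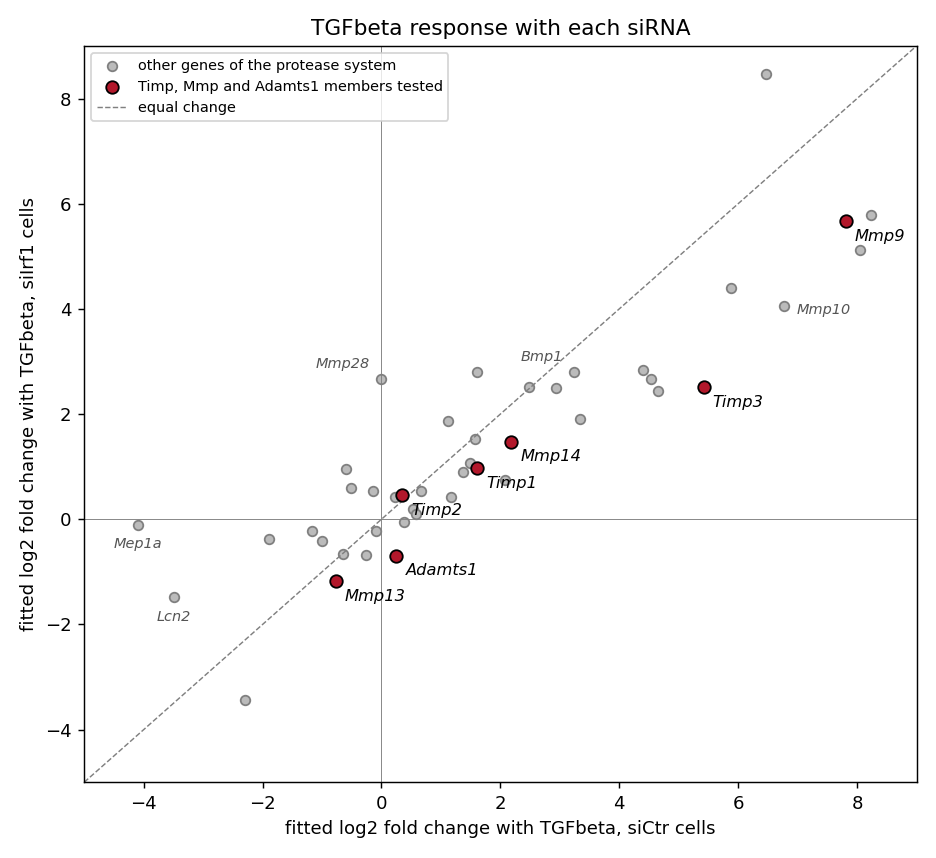
Fitted log2 fold change with TGFbeta in siIrf1 cells (y axis) and in siCtr cells (x axis) for the 7 tested genes (red) and 37 other genes of the protease system (grey), with a dashed line of equal change. Timp1, Timp3, Mmp14 and Mmp9 lie above 0 on both axes and below the dashed line, as does Mmp10, and Mep1a lies at -0.11 in siIrf1 and -4.10 in siCtr cells.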

How the data were processed

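Stranded Illumina libraries were made from total RNA, per the labels' protocols. The values deposited by the authors are unnormalized counts of reads per gene for each of the 10 libraries, with a length per gene, per the file headers. STAR and mm10 (GRCm38) are named in the submitters' processing notes. The STAR version, the counting tool and whether strand was used in counting were not given in the sources used, so that genes overlapping on opposite strands may share reads. Of 24454 Entrez identifiers, 24374 matched RefSeq GRCm38.p6, and the other 80 held 0.215 to 1.50% of a library. The members and gene lists were chosen with earlier results of these data known.

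The 4 groups were fitted together in edgeR 4.0.16 (R 4.3.3), with TMM scaling, filterByExpr and the robust quasi-likelihood test. The filter kept 13135 genes, and the fit had 6 residual degrees of freedom and a biological coefficient of variation of 0.225. Within a comparison, adjustment was by Benjamini-Hochberg over all tested genes (threshold 0.05). SE is the fitted log2 value over the root of its F statistic. Intervals (95%) and the floor of 3 counts cover counting error only. The script was tested on simulated data.

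Genes named are the 10 members, Irf1 and, per list, up to 3 called genes with the smallest adjusted p in the TGFbeta comparisons and up to 2 in the siRNA comparisons, with at least 1 CPM in the higher group. A listed gene is not reported here and was left out of its list. Alternatives were RLE size factors, no filter, a filter of 2 CPM in 3 libraries, DESeq2 1.42.0, a fit of only the groups compared, a block for the replicate number, removal of each library's trend with GC content and length (GC known for 95.0% of genes, GENCODE M21), trend removal with the block, and leaving out each library. A fit without both libraries that stood apart (siIrf1 TGFbeta replicate 2, siCtr 0 d replicate 1) was added after seeing the data. After subtraction of group means, libraries with the same replicate number correlated over 0.1 in 8 of 12 pairs (-0.39 to 0.45), and in all 3 pairs of siIrf1 TGFbeta with siIrf1 0 d (0.14 to 0.45). No correlations of libraries with unlike numbers were taken, so this check cannot show whether the numbers pair the libraries. The fit without the block would ignore such a pairing. All values given are from the fit without the block unless the block is named, and it changed no call of the 7 members with TGFbeta in siIrf1 cells. Replicates differed by more than counting noise (chi-square over its degrees of freedom 24.3 to 305).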

Additional observations from a re-analysis of the deposited data

Results flagged for a closer look

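Among the 7 tested members and the 37 other tested genes of the protease system, 8 passed the interaction test (edgeR, adjusted p under 0.05). For these the TGFbeta response itself differed between siIrf1 and siCtr cells. Of all 13135 tested genes 4.12% passed. The count is no support, since the genes were chosen with earlier results known and Timp3 and Mmp10 passed the filter only through their TGFbeta libraries. Among the 10 members this was Timp3, with a response in siIrf1 minus that in siCtr cells of -2.90 on the log2 scale. Its call was lost under 11 of 17 alternatives. Of the wider system, the response was smaller in siIrf1 cells for Mmp10 (-2.72, edgeR adjusted p = 0.0488), Pcolce2 (-2.20, 0.00886) and Adamts4 (-1.87, 0.0117). It was more positive in siIrf1 cells for Mep1a (3.99, edgeR adjusted p = 7.81e-05), which fell with TGFbeta in siCtr cells, for Mmp28 (2.68, 0.00242), for Lcn2 (2.00, 0.00619), which fell with either siRNA, and for Pcsk6 (1.55, 0.0125), a proprotein convertase. Pcsk6 lies outside the rule for named genes and was chosen after its values were seen. It had 27.7 ± 4.38 CPM in siIrf1 TGFbeta and 14.7 ± 1.39 in siCtr TGFbeta, against 14.2 ± 1.34 in siIrf1 0 d and 22.1 ± 1.43 in siCtr 0 d (SD). No cause was tested.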

How the results depend on the processing

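Over the 35 results of the 7 tested members (each gene in each comparison), 646 alternative values were computed, of which 554 kept direction and side of the threshold, 37 lost the call, 32 gained it and 23 changed sign. The rises of Timp1, Timp3, Mmp9 and Mmp14 with TGFbeta and the lower Timp1, Timp3 and Mmp9 with siIrf1 under TGFbeta kept their calls in every alternative that could test them, the filter of 2 CPM in 3 libraries leaving out Timp3 and Mmp9. Of the 925 alternative values of the other named genes and Irf1, 892 kept their call and 33 lost it. The cause of the changes below was not tested.

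Members called down with TGFbeta in siIrf1 cells (1) numbered 0 with RLE size factors, without a filter, with the 2 CPM filter and in the compared groups alone, 2 with the GC and length trend removed, with or without the block, and 0 to 2 leaving out libraries. Of all genes, 2799 were called, against 4374 with the trend removed, 4344 with trend removal and block, and 1957 to 4873 leaving out libraries. For TGFbeta in siCtr cells, the members up (4) were 5 without a filter, where Mmp2 was added, 2 with the 2 CPM filter and 4 to 5 leaving out libraries, the members down 1 with the trend removed and 0 to 1 leaving out libraries, and all genes called (4267) 2297 to 5159. For siIrf1 against siCtr with TGFbeta, the members down (5) were 3 with the 2 CPM filter and 3 to 5 leaving out libraries, and all genes called (2365) were 3566 with the trend removed and 762 to 4897 leaving out libraries. Without TGFbeta, members up were 1 with DESeq2, 1 with the replicate block, 2 with the trend removed, with or without the block, and 0 to 1 leaving out libraries. Members down (1) were 2 with the replicate block, 0 with the trend removed, with or without the block, and 0 to 1 leaving out libraries, and all genes called (4175) 1700 to 5192. For the interaction, members down (1) were 0 with the 2 CPM filter and with the replicate block, 2 with the trend removed, with or without the block, and 0 to 2 leaving out libraries. All genes called (541) were 1171 with DESeq2, 1249 with the trend removed, 917 with trend removal and block, and 122 to 1590 leaving out libraries.

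All sign changes were in values that had not passed the test. Between the siRNAs without TGFbeta, Timp3 was -0.31 with the trend removed and -0.32 with trend removal and block, Mmp13 -0.92 and -0.84, and Mmp14 -0.023 with the replicate block. Leaving out libraries, alone or both that stood apart, gave Timp3 -0.51 to 0.75, Mmp13 -0.54 to 1.245, Mmp14 -0.13 to 0.27 and Mmp9 -2.70 to 1.94 in that comparison. The Timp2 interaction was -0.059 with the trend removed, -0.19 with trend removal and block, and -0.18 to 0.22 leaving out libraries. Leaving out libraries, Mmp13 ranged over -1.33 to 0.46 with TGFbeta in siCtr cells, -0.64 to 0.046 between the siRNAs with TGFbeta, and -1.63 to 0.52 in the interaction. With 2 libraries in each siCtr group, leaving one out assumes that the other varies like the remaining groups.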
